A study of Mus musculus with 6 samples.

Results

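The immediate early and AP-1 genes examined here are 36 of the 18194 genes with a probe set on the array. They were chosen by name from general knowledge of the early transcriptional response of mammalian cells, with earlier results of these data known. All 36 were found by symbol among the probe sets that map to exactly 1 gene, and the brightest probe set stood for each gene. Of these, 35 were bright enough to be tested, among 12152 tested genes. Dusp2, a nuclear phosphatase that inactivates MAP kinases, lay below the limit of 73.5, with intensities of 26.7, 26.6 and 39.0 in Runx1-WT mice and 28.4, 25.6 and 23.7 in Runx1-null cells.

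The study compared luminal mammary epithelial cells (MECs) of mice with floxed and with wild-type Runx1, which encodes a RUNX family transcription factor. All 6 mice were adult virgin females of a mixed B6, 129 and FVB background, and all carried MMTV-Cre and R26Y, a reporter that expresses YFP after Cre-mediated recombination. The 3 Runx1-null mice were MMTV-Cre;Runx1L/L;R26Y, in which both Runx1 alleles are floxed, and the 3 Runx1-WT mice were MMTV-Cre;Runx1+/+;R26Y. MMTV-Cre acts in luminal and in some basal MECs, and YFP reports recombination of the reporter rather than of Runx1. By flow cytometry, the paper found a smaller share of mature luminal cells and a larger share of progenitors among YFP+ luminal cells of Runx1-null mice. By qRT-PCR, the paper found Runx1 expression lost in sorted YFP+ MECs of Runx1-null mice and significantly reduced in their YFP+ progenitors. In the mature cells that remained, it found Runx1 transcript only slightly reduced. In bulk RNA, a change in the makeup of the cells and a change within cells cannot be told apart. Thoracic and inguinal glands were minced and digested enzymatically, YFP+ luminal cells were sorted by flow cytometry, and the amplified RNA of each mouse was hybridized to 1 Affymetrix Mouse Genome 430 2.0 array. Values are linear, normalized intensities in arbitrary units, so levels are compared between mice for 1 probe set and never between genes.

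Immediate early genes are transcribed within minutes of a stimulus, through MAP kinases and the factors SRF, ELK and CREB, without new protein synthesis. Their transcripts are short-lived, and several products, such as the DUSP phosphatases and ZFP36, shut the response down again. FOS and JUN proteins form the dimeric transcription factor AP-1. In tissues that are dissociated with enzymes before sorting these genes are known to be induced during the preparation itself, and such handling was shared by all samples here.

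Intensities of the luminal marker list (Krt8, Krt18, Krt19, Epcam, Cd24a, Ehf and Elf3) summed to between 63488 and 68327 in Runx1-WT mice and between 64609.8 and 70314 in Runx1-null mice, and none of the 7 genes was at the floor on all arrays. Markers of other cell types were also on the arrays, and their sums are given between mice and not against the luminal sum. The sums of 6 endothelial markers were 1041 to 1301 in Runx1-WT mice and 650 to 853 in Runx1-null mice, without overlap. Among them Tek read 292, 163 and 223 in Runx1-WT mice and 109, 137 and 155 in Runx1-null mice, with an unadjusted limma p of 0.0476 and an adjusted p of 0.9997 (Benjamini-Hochberg). The erythroid gene Alas2 read 117, 104 and 80.9 in Runx1-WT mice and 50.5, 51.6 and 72.7 in Runx1-null mice, with an unadjusted limma p of 0.0461 and an adjusted p of 0.9997 (Benjamini-Hochberg). The other erythroid marker on the array, Hba-a1, was at the floor in all 6 mice and was not tested. The sums of 9 leukocyte markers were 1157 to 3739 in Runx1-WT, with the highest value in mouse 3, and 962 to 1560 in Runx1-null mice. Stromal sums ran from 11608 to 13641 and from 4581 to 12127, and basal sums from 4565 to 8633 and from 4347 to 11166. Array medians ran from 106 in Runx1-null mouse 3 to 163 in Runx1-WT mouse 1. Log2 ratios of 3′ to 5′ Gapdh control probes, a measure of RNA integrity and amplification, were 0.46 ± 0.003 in Runx1-WT mice and 0.54 ± 0.07 in Runx1-null mice (SD, n = 3 each; exact two-sided permutation p = 0.1, the smallest possible, and p = 0.2 after quantile normalization). For beta-actin they were 0.51 ± 0.01 and 0.56 ± 0.15 (SD, n = 3 each; exact two-sided permutation p = 0.8), with 0.74 in Runx1-null mouse 3 and 0.44 to 0.52 in the other mice. Runx1 read 4082, 3855 and 2015 in Runx1-WT mice and 3473, 4820.0 and 2277 in Runx1-null mice. The position of this probe set relative to the floxed exon was not analysed here, so that these values do not check the deletion.

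Promoter sequence was available for 30 of the 36 members from the RefSeq annotation of GRCm38.p6, in 45 windows of 300 bases around a transcription start. Fosl1, Egr1, Egr3, Ier2, Klf10 and Myc were not among them. The letters TGACG, the core of the cAMP response element through which CREB acts, searched on both strands, stood in the windows of 19 of the 30 genes (63.3%), against 23.0% of all 27025 genes with a window. By window it was 25 of 45 (55.6%), against 20.8% of all 32851. The SRF CArG box was found for Egr2, Dusp5 and Zfp36 (3 of 30 member genes, against 1.81% of all genes). Most of the 6 member windows that held it belonged to Egr2, which has several starts. The full element TGACGTCA, which contains the TGACG letters, was found for Dusp1 and Maff (6.67% against 2.03% of genes). The AP-1 site TGANTCA stood in the windows of 3 of 30 member genes and 8.97% of all genes, and in 6.67% of member windows and 7.81% of all windows. The RUNX site TGTGGT, found for Csrnp1, Ptgs2 and Sgk1, stood in the windows of 3 of 30 member genes and 18.9% of all genes. Matches describe letters in a window and no binding was measured. Shown here are the 250 bases before the start of Fos, Fosb, Junb, Maff, Nr4a2 and Nr4a3, which are 6 of the 19 genes with TGACG. The windows of Jun, Jund, Fosl2 and Ier3 did not hold it and are not shown. Of the 3 windows of Maff, the one with the most motif matches is shown. The coordinates are chr12:85473640-85473889 (+ strand), chr7:19310046-19310295 (-), chr8:84978749-84978998 (-), chr15:79347270-79347519 (+), chr2:57124004-57124253 (-) and chr4:48045055-48045304 (+). Capitals mark TGACG on either strand (CGTCA when read on the other strand), and in Maff also the full element and the EGR site GCGTGGGCG.
Fos: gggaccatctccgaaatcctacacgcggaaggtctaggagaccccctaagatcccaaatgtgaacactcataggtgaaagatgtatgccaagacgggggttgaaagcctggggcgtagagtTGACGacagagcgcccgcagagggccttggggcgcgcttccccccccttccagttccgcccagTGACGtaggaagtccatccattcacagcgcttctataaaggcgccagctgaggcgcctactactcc
Fosb: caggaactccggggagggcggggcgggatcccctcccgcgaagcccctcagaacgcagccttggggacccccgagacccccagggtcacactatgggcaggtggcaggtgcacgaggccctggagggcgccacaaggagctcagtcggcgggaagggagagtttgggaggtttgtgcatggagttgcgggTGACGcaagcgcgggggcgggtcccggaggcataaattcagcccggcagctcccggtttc
Junb: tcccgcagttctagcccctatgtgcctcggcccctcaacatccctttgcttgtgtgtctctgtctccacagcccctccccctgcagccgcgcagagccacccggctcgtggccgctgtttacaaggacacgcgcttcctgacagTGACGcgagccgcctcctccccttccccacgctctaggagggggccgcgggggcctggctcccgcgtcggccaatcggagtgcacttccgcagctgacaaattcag
Maff: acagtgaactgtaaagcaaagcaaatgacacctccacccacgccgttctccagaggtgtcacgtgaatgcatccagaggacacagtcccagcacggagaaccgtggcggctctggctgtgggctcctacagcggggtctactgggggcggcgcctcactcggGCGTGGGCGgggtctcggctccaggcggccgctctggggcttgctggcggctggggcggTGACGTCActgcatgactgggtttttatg
Nr4a2: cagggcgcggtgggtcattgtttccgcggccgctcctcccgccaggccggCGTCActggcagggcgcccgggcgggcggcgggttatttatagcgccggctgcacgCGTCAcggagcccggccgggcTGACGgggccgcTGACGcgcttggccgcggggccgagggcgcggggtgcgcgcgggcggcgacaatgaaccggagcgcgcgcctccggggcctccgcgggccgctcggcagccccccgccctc
Nr4a3: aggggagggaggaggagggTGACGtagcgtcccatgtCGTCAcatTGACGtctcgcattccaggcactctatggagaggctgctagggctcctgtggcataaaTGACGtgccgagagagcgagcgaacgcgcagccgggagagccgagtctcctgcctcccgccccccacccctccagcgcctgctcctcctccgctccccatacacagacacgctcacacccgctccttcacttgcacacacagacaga
In these stretches TGACG occurred 2 times before Fos, 1 time each before Fosb and Junb and 4 times each before Nr4a2 and Nr4a3. Maff held the palindromic element close to its start, read on both strands, and the EGR site upstream of it.

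Across the 35 tested genes, Runx1-null and Runx1-WT cells differed little, and for 32 of them the spread between mice of 1 genotype was larger than the difference between genotypes. The log2 differences, Runx1-null minus Runx1-WT, ran from -0.61 for Nr4a3 to 0.33 for Ier3, with a median of 0.04, against -0.02 over all tested genes. With limma and Benjamini-Hochberg adjustment over all 12152 genes, 0 members passed an adjusted p of 0.05, as did 0 of all genes (0%), and the adjusted p-values of the members lay between 0.9997 and 0.9999. At an unadjusted limma p under 0.05 there was 1 member, Ier3, which was higher in Runx1-null mice, and 0 lower members, against 1.93% of all genes (0.642% higher and 1.28% lower). Ier3 was also the 1 member whose genotypes did not overlap, against 5.55% of all genes (2.08% higher and 3.47% lower). For 26 of 35 members (74.3%) the difference lay above 0, against 44.6% of all genes. The count fell to 16 when Runx1-WT mouse 3 was left out, with a median difference of -0.01, and to 17 when Runx1-null mouse 2 was left out, with a median of -0.0035.

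**Figure D1:**
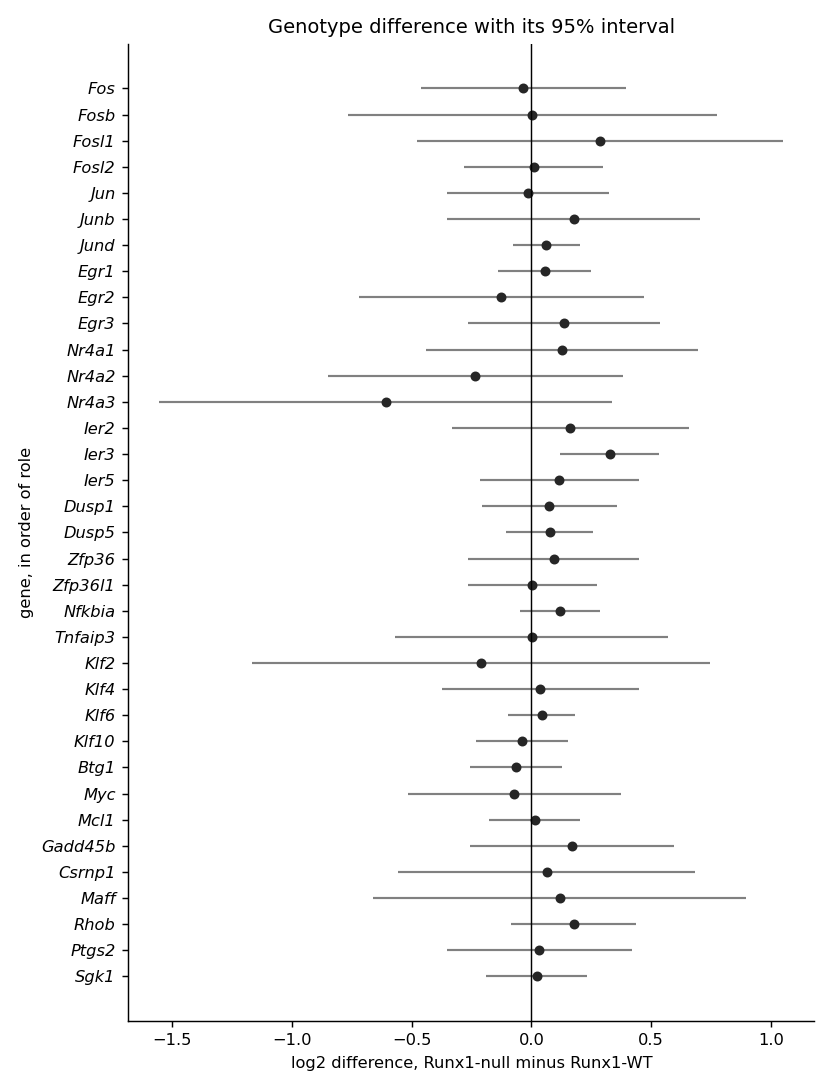
Log2 difference (Runx1-null minus Runx1-WT) of the 35 tested members, ordered by role, as points with 95% confidence intervals from limma. All intervals but that of Ier3 include 0, and those of Fosl1, Klf2 and Nr4a3 reach beyond 1 or -1.

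The confidence intervals of the differences were set against fold limits. For 32 of 35 members the 95% interval lay between -1 and 1 on the log2 scale, a 2-fold change in either direction, and for 23 members it lay within a 1.5-fold change. The exceptions to the 2-fold limit were Fosl1 (-0.48 to 1.05), Klf2 (-1.17 to 0.75) and Nr4a3 (-1.55 to 0.34). Half-widths ran from 0.14 for Jund to 0.96 for Klf2, with a median of 0.39.

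The FOS family supplies the AP-1 partners that cannot pair with each other. Fos, the archetypal immediate early gene, read 8454, 7410.1 and 6095 in Runx1-WT mice and 5499, 7986 and 8089 in Runx1-null mice. Its lowest and second highest values were thus both in Runx1-null mice, and the log2 difference was -0.03 ± 0.18 (SE, 3 mice per genotype, limma). Fosb, a close paralog of Fos, read 4346, 4134 and 2674 in Runx1-WT mice and 2287, 4144 and 5110.2 in Runx1-null mice. The Runx1-null values bracketed all Runx1-WT values, and the difference was 0.00 ± 0.33. Fosl1, which encodes FRA1, read 2702, 3465 and 1538 in Runx1-WT mice and 2239.7, 3362 and 3475 in Runx1-null mice. Its difference of 0.29 ± 0.32 turned on Runx1-WT mouse 3, the lowest value, without which it was -0.04. Fosl2, which encodes FRA2, read 6067, 4919 and 5248 in Runx1-WT mice and 5149.6, 6266 and 4949 in Runx1-null mice. The genotypes overlapped fully, with a difference of 0.01 ± 0.12.

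The JUN family forms AP-1 dimers with FOS proteins or with each other. Jun read 8093, 8496 and 6182 in Runx1-WT mice and 6848, 8585 and 7026 in Runx1-null mice, and its difference was -0.01 ± 0.14. Its 2 tested probe sets had opposite signs (-0.01 ± 0.14 and 0.17 ± 0.25), with neither distinguishable from 0. Junb, often a weaker activator than Jun, read 981, 993 and 678 in Runx1-WT mice and 837, 1039 and 1095 in Runx1-null mice. Runx1-WT mouse 3 and Runx1-null mouse 1 were again the lowest, and the difference was 0.18 ± 0.22. Jund, the least inducible of the family, read 8500.3, 8077 and 8439 in Runx1-WT mice and 8415, 8418 and 9305 in Runx1-null mice. It had the smallest spread of the tested members, with a within-genotype SD of 0.07 on the log2 scale and a difference of 0.06 ± 0.06.

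**Figure D2:**
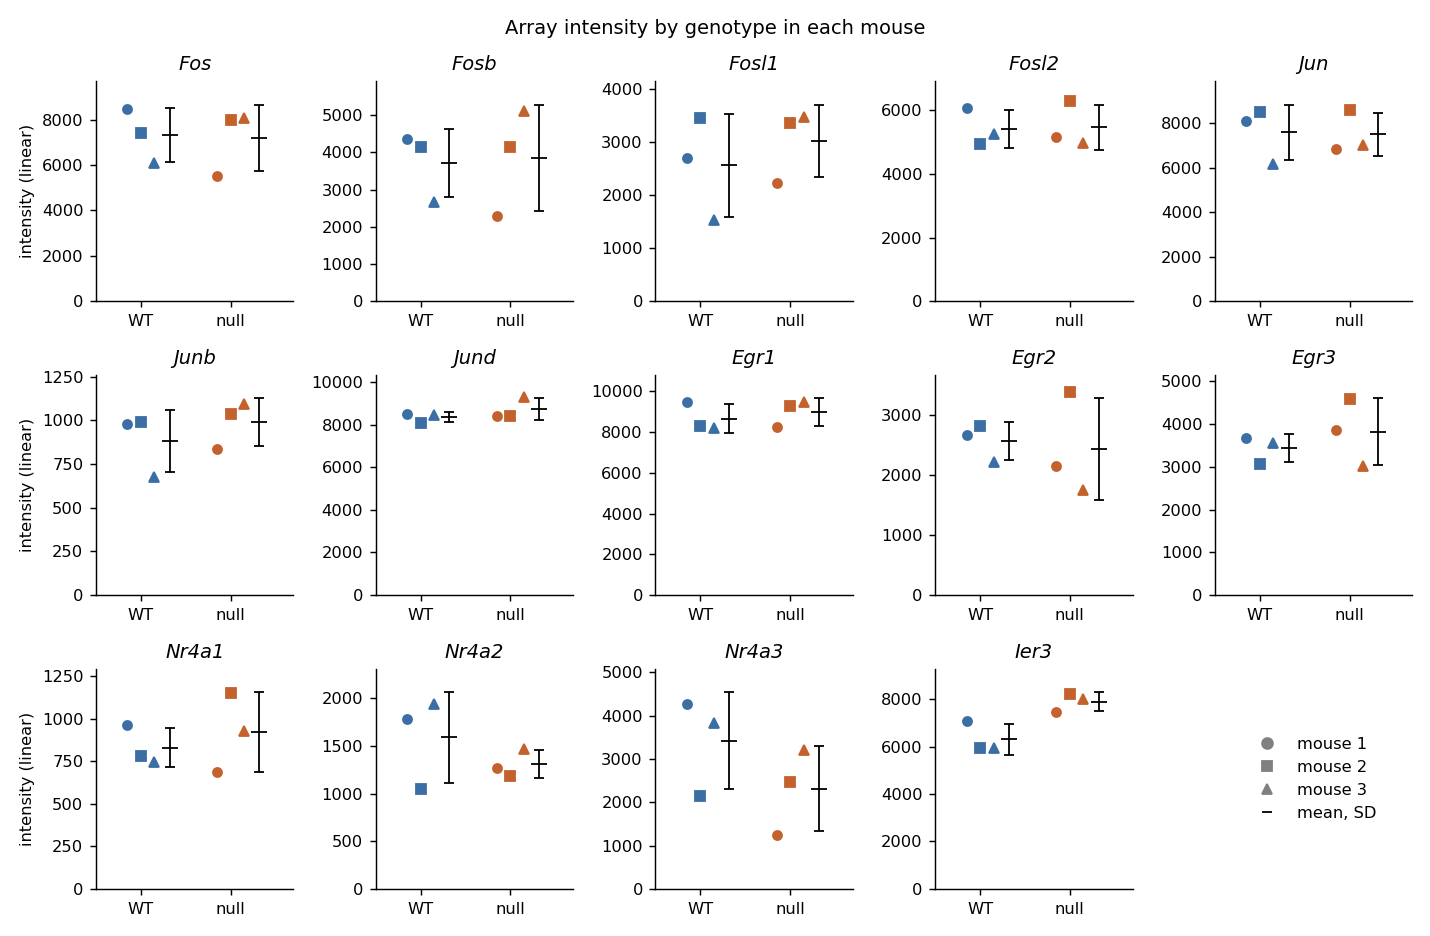
Linear array intensity of the FOS, JUN, EGR and NR4A genes and Ier3 in each of the 6 mice, with the mean and SD of each genotype (n = 3) to the right of its points. Only Ier3 has 3 Runx1-null values above all 3 Runx1-WT values. Runx1-WT mouse 3 and Runx1-null mouse 1 lie low for Fos, Fosb, Fosl1, Jun, Junb and Nr4a1.

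The EGR genes encode zinc finger factors induced through SRF. Egr1 read 9468, 8270.0 and 8195 in Runx1-WT mice and 8219, 9275 and 9444 in Runx1-null mice. Each genotype held high and low values, and the difference was 0.06 ± 0.08. Egr2, in whose window the CArG box was found, read 2666, 2821 and 2218 in Runx1-WT mice and 2151, 3388 and 1762 in Runx1-null mice. Both the highest and the lowest value were in Runx1-null mice, with a difference of -0.13 ± 0.25. Egr3 read 3682, 3059 and 3567 in Runx1-WT mice and 3858, 4581 and 3025 in Runx1-null mice, with a difference of 0.14 ± 0.17. Unlike the FOS genes, Egr2 and Egr3 were lowest in Runx1-null mouse 3.

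The NR4A genes encode orphan nuclear receptors induced through CREB, among other routes. Nr4a1, which encodes NUR77, read 963, 783 and 747 in Runx1-WT mice and 687, 1153 and 929 in Runx1-null mice, a difference of 0.13 ± 0.24. Nr4a2, which encodes NURR1, read 1781, 1048 and 1937 in Runx1-WT mice and 1273, 1189 and 1468 in Runx1-null mice. The 3 Runx1-null values lay between the lowest and the middle Runx1-WT value, and the difference was -0.23 ± 0.26. Its 4 tested probe sets gave differences from -0.42 to -0.23, none distinguishable from 0. Nr4a3, which encodes NOR1, read 4277, 2155 and 3838 in Runx1-WT mice and 1257, 2477 and 3199 in Runx1-null mice. Its means were 3423 ± 1120.4 and 2311 ± 982 (SD, n = 3 each), with single mice from 1257 to 4277. Its difference of -0.61 ± 0.40 was the largest in size of the tested members, with an unadjusted limma p of 0.170 and an adjusted p of 0.9997 (Benjamini-Hochberg). It also had their largest within-genotype SD, 0.62, and without Runx1-null mouse 1 the difference was -0.22.

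Among the IER genes, Ier3 encodes a small protein that modulates ERK signalling and cell survival. Ier3 read 7066, 5934 and 5929.7 in Runx1-WT mice and 7462, 8228 and 7998 in Runx1-null mice. The lowest Runx1-null value lay above the highest Runx1-WT value, and the means were 6310.0 ± 655 and 7896 ± 393 (SD, n = 3 each), a ratio of 1.25 on the mean log2 scale. The difference was 0.33 ± 0.09 with an unadjusted limma p of 0.00739, rank 27 of 12152 genes, and an adjusted p of 0.9997 (Benjamini-Hochberg), so that it did not pass. It lay between 0.28 and 0.41 when each mouse was left out in turn. Ier2 and Ier5, nuclear members of the IER family, overlapped between genotypes, with differences of 0.16 and 0.12.

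The genes that end the response were close to equal between genotypes. Of 6 tested, the differences ran from 0.00 to 0.12 and the genotypes of all 6 overlapped. They were the MAP kinase phosphatases Dusp1 (0.08) and Dusp5 (0.08), the AU-rich element binding proteins Zfp36 (0.09) and Zfp36l1 (0.00), and the NF-kappaB inhibitors Nfkbia (0.12) and Tnfaip3 (0.00). Tnfaip3, which encodes the deubiquitinase A20, varied most: it read 1438, 1286 and 1291 in Runx1-WT mice and 1005, 1293 and 1839 in Runx1-null mice. Both extremes were in Runx1-null mice.

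The KLF genes encode zinc finger factors, several of them induced by growth factors and stress. Klf4 (0.04), Klf6 (0.04) and Klf10 (-0.04) differed little. Klf2, a quiescence factor of endothelial and lymphoid cells, read 293, 349 and 365 in Runx1-WT mice and 153, 362 and 433 in Runx1-null mice, a difference of -0.21 ± 0.40. Its spread came from Runx1-null mouse 1, where the value was the lowest of the 6. The same mouse had the lowest endothelial marker sum (650). In other mice the orders differed. Runx1-WT mouse 1 had the highest sum (1301) and a Klf2 of 293, and Runx1-null mouse 3 had the highest Klf2 (433) and a sum of 853. The part of endothelial RNA in the Klf2 values was not tested.

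Of the growth and survival genes, the differences ran from -0.07 to 0.17. They were Gadd45b (0.17), a stress sensor, Maff (0.12), a small MAF factor that pairs with bZIP proteins, Csrnp1 (0.06), Mcl1 (0.01), an anti-apoptotic BCL2 family member, Btg1 (-0.06), an antiproliferative gene, and Myc (-0.07). Maff read 2785, 3899.9 and 2021 in Runx1-WT mice and 2068, 3139 and 4322 in Runx1-null mice, so that each genotype had a low mouse. The effectors Rhob, a small GTPase (0.18), Ptgs2, which encodes cyclooxygenase-2 (0.03), and Sgk1, a kinase (0.02), also overlapped between genotypes.

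The spread within genotypes was set beside the genotype difference for each member. The median within-genotype SD of the 35 members was 0.22 on the log2 scale (0.07 to 0.62), against 0.27 over all tested genes and 0.20 over tested genes with a mean intensity of at least 1000. The 32 members above that intensity had a median SD of 0.22. No member (0 of 35) exceeded the 90th percentile of the SD over all genes, 0.74. Of the tested genes with a mean intensity of at least 1000, 3.89% did. The difference was larger in size than the SD for 3 of 35 members (8.57%), Ier3, Nfkbia and Rhob, against 20.2% of all genes. From the lowest to the highest of the 6 mice the median ratio was 1.45, against 1.63 over all genes. It was over 2 for 6 members, which were Nr4a3 (3.40), Klf2 (2.83), Fosl1 (2.26), Fosb (2.23), Maff (2.14) and Csrnp1 (2.03), that is 17.1% of members against 31.0% of all genes. For these ratios the other genes were not matched to the members by intensity.

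**Figure D3:**
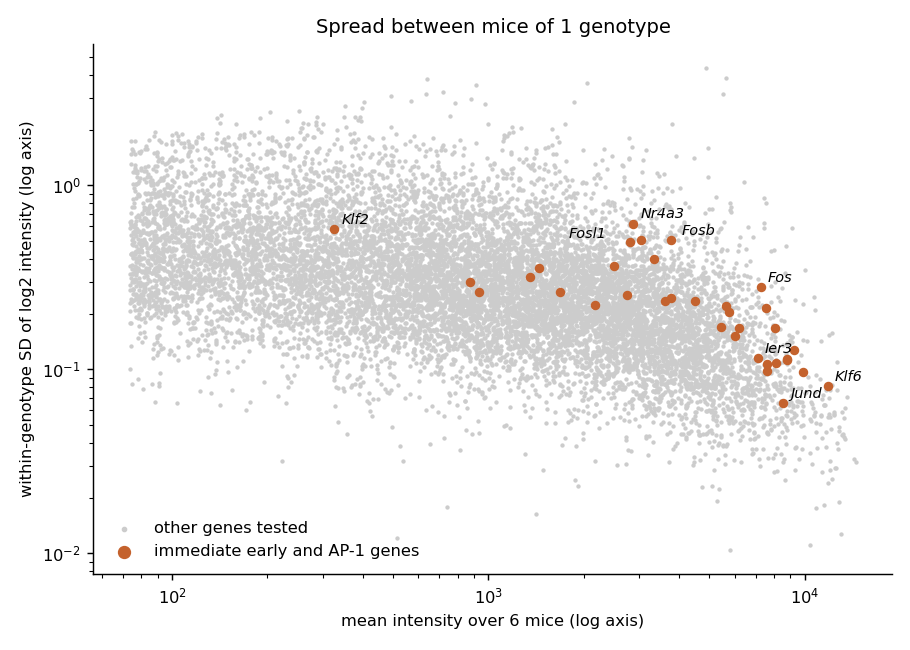
Within-genotype SD of log2 intensity (4 residual degrees of freedom) against mean intensity, both on log axes, for all tested genes and the 35 members. The members lie among the other genes of like intensity, with Nr4a3 and Klf2 the most variable of them.

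Although the genotypes did not separate, many members were high or low in the same mice, in an order that crossed genotype. This order was noticed in the values and was not tested. Relative to each gene's mean over the 6 mice, 29 of 35 members were low and 6 high in Runx1-WT mouse 3, where 57.1% of all genes were high. The counts were the same in Runx1-null mouse 1, where 47.5% of all genes were high. In contrast, 28 of 35 members were high in Runx1-WT mouse 1 (61.4% of all genes), in Runx1-null mouse 2 (59.6%) and in Runx1-null mouse 3 (44.9%). Runx1-WT mouse 2 was near the middle, with 16 members above and 19 below (40.8% of all genes above). The median deviation of the members minus that of all tested genes was 0.03, 0.03 and -0.17 in Runx1-WT mice 1 to 3 and -0.14, 0.11 and 0.18 in Runx1-null mice 1 to 3. The highest value was in Runx1-null mouse 3 for 13 members (37.1%, against 17.4% of all genes) and in Runx1-null mouse 2 for 12 (34.3% against 11.7%). The lowest was in Runx1-null mouse 1 for 15 (42.9% against 23.9%) and in Runx1-WT mouse 3 for 10 (28.6% against 13.1%). Runx1-null mouse 3 was also the mouse with the high beta-actin ratio and the lowest array median. All 6 stromal markers were lowest in that mouse, and 5 of the 7 luminal markers were highest in it. The part of RNA quality and of these markers in the order was not tested.

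For 18 of 35 members (51.4%), Runx1-WT mouse 3 and Runx1-null mouse 1 were the 2 lowest mice, against 14.3% of all tested genes. They were Fos, Fosb, Fosl1, Jun, Junb, Egr1, Nr4a1, Ier5, Dusp1, Zfp36, Klf4, Klf6, Btg1, Myc, Mcl1, Csrnp1, Maff and Sgk1, and thus came from all roles. The count was 15 (42.9% against 12.1%) after quantile normalization and 8 (22.9% against 9.83%) after scaling arrays to a common median, where Runx1-null mouse 3 was highest for 32 of 35 members. With that scaling 2 members were high and 33 low in Runx1-WT mouse 1, where the median deviation of all genes was -0.21. In Runx1-WT mouse 3, where it was 0.12, 14 members were high and 21 low. The counts of high and low members thus depended on the scaling. Scaling to a common median cannot alter a deviation relative to all genes. After quantile normalization the relative deviations were 0.09, 0.01 and -0.18 in Runx1-WT mice 1 to 3 and -0.12, 0.13 and 0.06 in Runx1-null mice 1 to 3, so that the value of Runx1-null mouse 3 was smaller and that of Runx1-WT mouse 1 larger. By role, the FOS and JUN genes had median deviations of -0.28 in Runx1-WT mouse 3 and -0.14 in Runx1-null mouse 1. The median of the NR4A genes was -0.33 in Runx1-null mouse 1 but 0.45 in Runx1-WT mouse 3, where Nr4a2 and Nr4a3 were high and Nr4a1 was low.

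**Figure D4:**
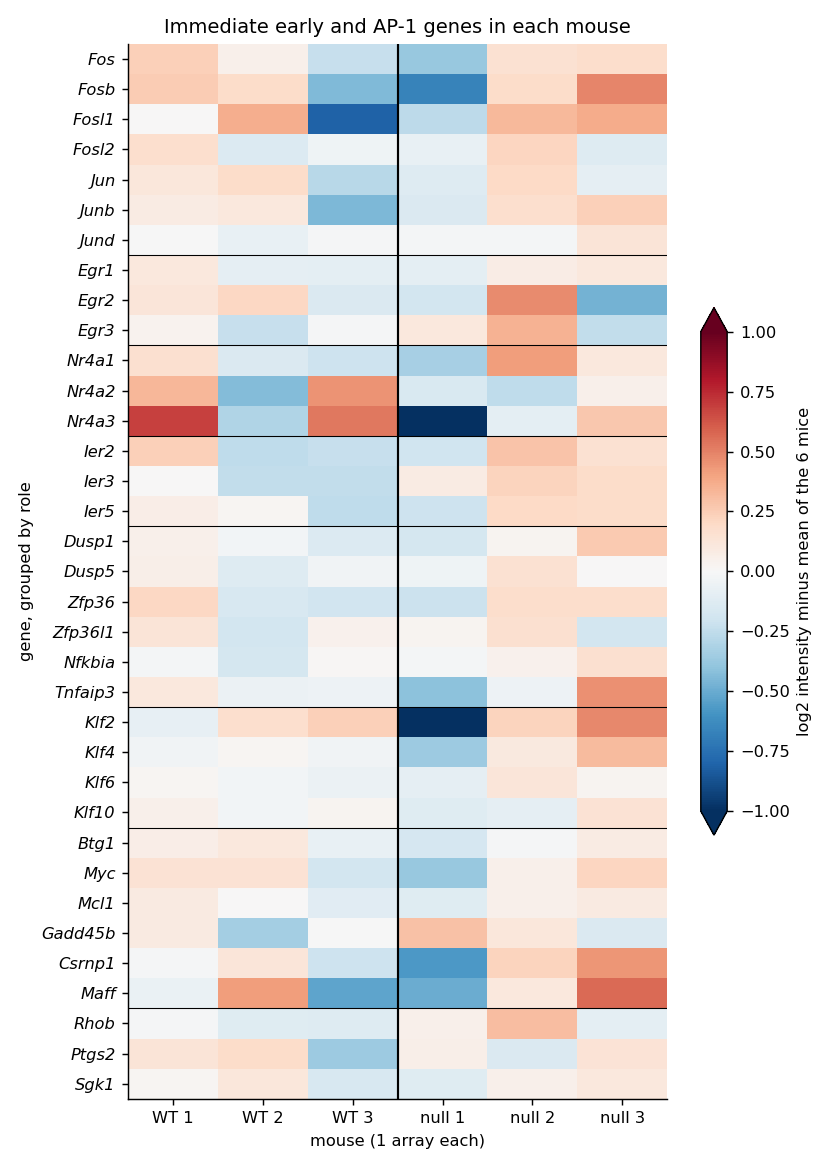
Log2 deviation of each tested member (rows, by role) from its mean over the 6 mice (columns). Colours saturate at 1 and -1. The columns of Runx1-WT mouse 3 and Runx1-null mouse 1 are mostly below 0, and those of Runx1-null mice 2 and 3 mostly above 0.

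Runx1-WT mouse 3, low for most members, had the highest leukocyte sum, and 6 of the 9 markers (Ptprc, Cd3e, Cd79a, Adgre1, Lyz2 and Cd52) were highest there. Ptprc, for example, read 205 against 47.4 in the next highest mouse. Cd68 was at 345 there and at 449 in Runx1-null mouse 3, Csf1r was lowest there at 155, and Itgam was at 12.8, within the range of the other mice. Of the 9 leukocyte markers on the array 6 were tested, and 0 had an unadjusted limma p under 0.05 between genotypes. Runx1-null mouse 1, low for as many members, had a leukocyte sum within the range of the other mice. The part of these markers in the members' order was not tested. In bulk RNA, fewer cells of a type and less RNA per cell cannot be told apart.

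The animal numbers in the labels fell into a lower range of 4 mice (mice 1 and 2 of each genotype) and an upper range of 2 (mouse 3 of each genotype). What the numbers stand for was not given. In the lower range 23 of 35 members had a difference below 0, with a median of -0.08, against 0.01 over all genes. In the upper range 28 lay above 0, with a median of 0.25, against -0.09 over all genes. The sign was opposite in the ranges for 24 members (68.6%), a share near the 68.7% of all genes. For 20 members (57.1%) the difference was below 0 in the lower and above 0 in the upper range, against 28.9% of all genes. Fosb, for example, was at -0.46 in the lower and 0.94 in the upper range. The upper range has 1 mouse per genotype and allows no test.

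**Figure D5:**
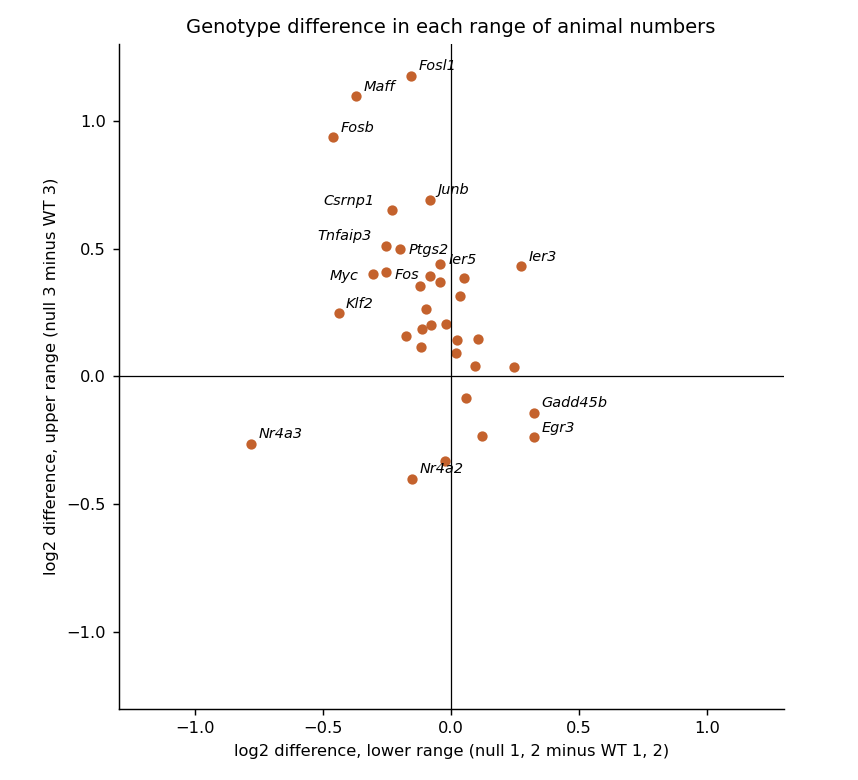
Log2 difference of each tested member in the lower range of animal numbers (x axis, 2 mice per genotype) and in the upper range (y axis, 1 mouse per genotype). Of 35 members, 20 lie in the upper left, with a difference below 0 in the lower and above 0 in the upper range, Fosl1, Maff and Fosb farthest from 0 on the y axis.

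Other genes of the same response were examined as further lists. Of 38 other immediate early and stress-induced genes, such as Atf3, Ccn1 and Cxcl1, 37 were tested. Their differences lay above 0 for 23 (62.2%, against 44.6% of all genes) and below for 14, with a median of 0.04. Genotypes did not overlap for 1 of the 37 (2.7%, against 5.55% of all genes), Irf1, which was lower in Runx1-null mice. At an unadjusted limma p under 0.05 there were 0 of these genes, against 1.93% of all genes. Their median deviations, relative to all genes, had the members' signs, -0.12 in Runx1-WT mouse 3, -0.17 in Runx1-null mouse 1, 0.05 in Runx1-null mouse 2 and 0.17 in Runx1-null mouse 3. Runx1-WT mouse 3 and Runx1-null mouse 1 were their 2 lowest mice for 8 of 37 (21.6%, against 14.3% of all genes).

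Of 31 kinases and factors upstream of the response and further AP-1 partners, 25 were tested. Their differences lay above 0 for 15 (60%, against 44.6% of all genes) and below for 10, with a median of 0.02. Their median deviation relative to all genes was -0.22 in Runx1-WT mouse 3, lower than the members' -0.17. In Runx1-null mice 1 to 3 it was 0.10, 0.06 and -0.09. Runx1-WT mouse 3 and Runx1-null mouse 1 were the 2 lowest mice for 3 of 25 (12%, against 14.3% of all genes). Maf, a large MAF factor that can pair with FOS and JUN, read 774, 556 and 822 in Runx1-WT mice and 245, 477 and 262 in Runx1-null mice. All 3 Runx1-null values lay below all Runx1-WT values, and the difference was -1.18 ± 0.32, with an unadjusted limma p of 0.00761 and an adjusted p of 0.9997 (Benjamini-Hochberg). It was the 1 gene of that list with an unadjusted limma p under 0.05 (4%, against 1.93% of all genes). Genotypes did not overlap for 2 of the 25 (8%, against 5.55% of all genes), Maf and Rps6ka5, which was higher in Runx1-null mice.

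All 10 heat shock genes, which cells also raise during dissociation, had a difference above 0, against 44.6% of all genes, with a median of 0.18. Hspb1, a small heat shock protein, read 4451, 4426 and 4637 in Runx1-WT mice and 5725, 6052 and 6265 in Runx1-null mice. The genotypes did not overlap, and the difference was 0.42 ± 0.07 with an unadjusted limma p of 0.000736 and an adjusted p of 0.9997 (Benjamini-Hochberg). Hspb1 was the 1 gene of the 10 with an unadjusted limma p under 0.05 (10%, against 1.93% of all genes). Dnajb1 was also without overlap, so that 2 of 10 (20%) were, against 5.55% of all genes. Median deviations of the heat shock genes relative to all genes were -0.12, -0.08 and -0.02 in Runx1-WT mice 1 to 3. They were 0.12, 0.01 and 0.03 in Runx1-null mice 1 to 3. The signs differed from the members' in Runx1-WT mice 1 and 2 and Runx1-null mouse 1, and matched in the other mice. Runx1-WT mouse 3 and Runx1-null mouse 1 were the 2 lowest for 0 of 10, against 14.3% of all genes.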

How the data were processed

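Gene expression of sorted luminal MECs was measured in 3 Runx1-WT and 3 Runx1-null mice, with 1 array per mouse, and replicates were separate animals. The authors normalized the arrays with dChip and deposited linear intensities for 45101 probe sets. The dChip version and model are not given in the sources used here. The methods describe littermates, but the litter of each mouse was not known and was not in the fit. The number of arrays limits the precision.

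Probe sets were named by the platform annotation: 34958 matched 1 symbol, 932 matched more than 1 and 9211 had no entry there. The members had 73 probe sets. A floor was set at the 20th percentile of all values (19.3) before log2 was taken. The brightest probe set stood for each gene. The 12152 genes whose mean reached the 40th percentile of probe set means (73.5) were tested with limma 3.58.1 in R 4.3.3 (lmFit, eBayes with an intensity trend), with Benjamini-Hochberg adjustment over all of them and a threshold of 0.05. The analysis was tested on simulated data. Single values were compared by an exact two-sided permutation test.

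The members and the lists were chosen with earlier results of these data known, and no test was made over a list. Values of all mice are given for the FOS, JUN, EGR and NR4A genes and for members with an unadjusted p under 0.05, without overlap, or with an SD above the 90th percentile. Other genes of the lists are named with values where the unadjusted p was under 0.05. Tnfaip3, Klf2, Maff and the leukocyte markers were added after their values were seen, and the comparison with genes of at least 1000 was chosen after seeing the data. As alternatives, the filter was dropped or raised to the 60th percentile, arrays were quantile normalized or scaled to 1 median, the floor was replaced by adding 5.04, each mouse was left out in turn, and the range of animal numbers was a block or each range was taken alone. Further alternatives were no trend, every probe set, and the t-test of the study's methods. In 1 more, probe sets marked as cross-hybridizing were used only where a gene had no other.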

Additional observations from a re-analysis of the deposited data

How the results depend on the processing

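The count of members with an adjusted limma p under 0.05 was 0 in the fit reported and in each alternative that was run, as was the count over all genes, and by unadjusted p it was 0 to 2 members. Ier3 was not among those after median scaling or in the lower range, where the count was 0. Without a filter 535 of all genes had an unadjusted p under 0.05, with every probe set 382 probe sets, after median scaling 123, and within the lower animal numbers 1866. No paired analysis was possible because the labels give animal numbers and no replicate numbers shared between genotypes, and the litter of each mouse is not known. When the animal-number range entered the fit as a block, 1 member and 305 of all genes had an unadjusted limma p under 0.05 and 0 passed. In the lower range alone, with 2 mice against 2, 9 members did not overlap (50.5% of all genes), and in the upper range alone the median difference of the members was 0.25. After median scaling, which raised the median difference of all genes from -0.02 to 0.07, the differences of Fos and Jun were 0.056 and 0.077 and 31 members lay above 0 (64.7% of all genes). In the lower range Fosb, Fosl1, Junb and Egr1 were at -0.46, -0.16, -0.082 and -0.019, and in the upper range Fos, Fosl2, Jun and Egr3 at 0.41, -0.085, 0.18 and -0.24. When each mouse was left out in turn, 2 to 7 of 35 members did not overlap. The count was 7 without Runx1-null mouse 1 (11% of all genes) and 5 without Runx1-null mouse 3 (19.9%). It was 3 without Runx1-WT mouse 1 (7.92%) or mouse 2 (13.9%). It was 2 without Runx1-WT mouse 3 (25.7%) or Runx1-null mouse 2 (12%). Leaving out each mouse also gave 16 to 31 members above 0, a median SD of 0.18 to 0.23 and a median difference of -0.01 to 0.12. The differences then ran from -0.16 to 0.15 for Fos, -0.24 to 0.34 for Fosb, -0.043 to 0.54 for Fosl1, -0.095 to 0.095 for Fosl2, -0.15 to 0.074 for Jun, -0.0046 to 0.29 for Junb, -0.39 to 0.079 for Egr2, -0.0037 to 0.30 for Egr3 and -0.049 to 0.33 for Nr4a1. The direction was the same whichever mouse was left out for Jund (0.014 to 0.086), Egr1 (0.018 to 0.12), Nr4a2 (-0.51 to -0.067), Nr4a3 (-0.91 to -0.22) and Ier3 (0.28 to 0.41). With 3 mice per genotype, differences smaller than the intervals given could not be told from 0. The intervals are for single genes, without adjustment. A larger difference could also fail the adjusted threshold, as Ier3 did (interval 0.12 to 0.53, adjusted limma p 0.9997, Benjamini-Hochberg). The cause of these shifts was not tested.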
